A study of Mus musculus with 28 samples.

Results

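Type 1 conventional dendritic cells (cDC1) are described here through 10 genes that mark them: Xcr1, Clec9a, Tlr3, Batf3, Irf8, Cadm1, Itgae, Ly75, Wdfy4 and Cd36. Each gene was read from a probe set annotated with that 1 symbol, the one with the highest mean where a gene had several, and all 10 were found among 19938 genes on the array. The samples were 28 one-colour Affymetrix arrays of RNA from mouse splenic dendritic cells, taken at an age of 3 months, in 6 groups. Cells of NOX2 (GP91 Phox) knockout mice had received angiotensin II (Ang II, 4 arrays) or vehicle (3 arrays). Cells of C57BL6/J wild-type mice had received the combination of hydralazine with hydrochlorothiazide on top of Ang II (Hyd/HCTZ, 6 arrays), 2-hydroxybenzylamine on top of Ang II (2-HOBA, 4 arrays), Ang II alone (4 arrays) or vehicle (7 arrays). Ang II is a hormone that raises blood pressure, hydralazine a vasodilator, hydrochlorothiazide a diuretic, 2-HOBA a scavenger of reactive dicarbonyls, and NOX2 the subunit of the NADPH oxidase of phagocytes that makes superoxide. The stated question was how oxidative stress changes dendritic cell expression. The study design puts the treatments after the isolation of the cells, whereas the titles call the vehicle groups sham, so whether cells or mice were treated is not settled here. The titles of the treated knockout arrays read Ang I and their descriptions Ang II, which was followed. How the cells were sorted, and the doses and times of treatment, are not given in the sources used here, and the arrays are labelled as biological replicates without naming animals.

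The cDC1 are the dendritic cells specialised in cross-presentation, the display of antigen taken up from outside the cell on MHC class I to CD8 T cells. Their development needs the transcription factors Irf8 and Batf3, and in mouse spleen they carry the chemokine receptor Xcr1, the dead-cell receptor Clec9a and the double-stranded RNA sensor Tlr3. Several of the 10 genes are also transcribed elsewhere in the spleen: Irf8, Ly75 and Wdfy4 in B cells, and Cd36 in red pulp macrophages and monocytes.

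Promoters of the 3 surface and sensor genes Xcr1, Clec9a and Tlr3, and of Batf3, are shown as examples. These genes had large differences between the groups, but Wdfy4, whose window is not printed, differed more than Clec9a between Hyd/HCTZ and Ang II alone. Each line runs from 150 bases before to 10 bases after the RefSeq start (GRCm38.p6), read along the gene's strand, and capitals mark a motif match. The windows are chr9:123862020-123862179 (minus strand), chr6:129408712-129408871 (plus strand), chr8:45410371-45410530 (minus strand) and chr1:191098264-191098423 (plus strand).
Xcr1: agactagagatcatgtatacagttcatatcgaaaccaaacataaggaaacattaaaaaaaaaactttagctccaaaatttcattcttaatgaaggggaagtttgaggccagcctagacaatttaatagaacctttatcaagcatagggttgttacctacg
Clec9a: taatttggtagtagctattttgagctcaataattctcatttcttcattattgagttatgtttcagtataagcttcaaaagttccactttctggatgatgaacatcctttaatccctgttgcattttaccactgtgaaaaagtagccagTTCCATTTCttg
Tlr3: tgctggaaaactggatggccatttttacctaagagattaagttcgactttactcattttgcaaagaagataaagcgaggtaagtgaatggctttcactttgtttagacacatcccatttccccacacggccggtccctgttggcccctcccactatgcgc
Batf3: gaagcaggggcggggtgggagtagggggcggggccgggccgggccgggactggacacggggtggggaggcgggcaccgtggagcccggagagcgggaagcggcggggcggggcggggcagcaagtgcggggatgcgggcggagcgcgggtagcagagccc

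Among the 10 genes, 8 had such an entry, with 9 windows in all since Irf8 had a pair of starts; Cadm1 and Itgae are named only. Both strands of 300 bases (250 before and 50 after the start) were searched for TGANTCA, the site of AP-1 factors, the family of Batf3, and for GAAANNGAA, the core of the interferon response element, read by Irf factors. TGANTCA was in 0 windows of the 8 genes, and in 2565 of 32851 windows of all genes (7.81%). GAAANNGAA was found once, in Clec9a, as TTCCATTTC on the printed strand from base -2 to base 7 around the start (chr6:129408860-129408868), against 2812 of all windows (8.56%). The bases before the start differed widely in composition among the genes. The GC content of the 250 bases before the start was 76.0% in Batf3, 66.8% in Ly75, 54.4% in Wdfy4, 48.0% in Tlr3, 43.2% in Cd36, 38.8% in Xcr1 and 35.6% in Clec9a, and 67.2% and 54.0% at the starts of Irf8. For all windows the quartiles were 45.2%, 52.4% and 61.2%, so Xcr1, Clec9a and Cd36 lay below the lowest quartile, and Batf3, Ly75 and the first start of Irf8 above the highest.

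Some properties of the arrays bear on every comparison. Cybb, which encodes NOX2, read 6.41 to 7.18 in the 7 knockout arrays. It read 8.35 to 9.75 in all wild-type arrays but 1, the array labelled wild-type vehicle replicate 2, whose level of 6.34 went against its label. That array also had the lowest mean correlation with the others (0.852) and the narrowest interquartile range (1.92), and comparisons that use its group are also given without it. A principal component analysis used 6598 probe sets without a gene symbol, whose block of identifiers was assumed to hold control sequences. Its leading component (27.6% of their variance) parted the arrays into 3 sets, a division made after the data were seen. Vehicle replicate 2 stood apart on it as well, at a score of 60.9 against 35.7 for the next array, a wider gap than that between sets 1 and 2 (19.2 against 5.9), and was kept in set 1. All 7 arrays of knockout cells fell in set 1, with Ang II replicates 1 and 2 and vehicle replicates 1, 2 and 3 of the wild type. In set 2 were the 2-HOBA arrays, the remaining 2 Ang II arrays and the remaining 4 vehicle arrays. The 6 Hyd/HCTZ arrays made up set 3, so for Hyd/HCTZ array set and treatment cannot be told apart. The interquartile range of the Hyd/HCTZ arrays was 3.09 to 3.44, against 1.92 to 3.03 elsewhere. The median of all tested genes lay 0.32 higher with Hyd/HCTZ than with Ang II alone, 0.31 higher than with vehicle and 0.25 higher than with 2-HOBA. Those differences are therefore also given relative to this shift.

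All values are log2 levels on the RMA scale, so a difference of 1 is a 2-fold difference, and a gene was called at a limma adjusted p below 0.05 over 10452 tested genes. All 10 markers passed the filter for testing (above 5 on at least 3 arrays), also when the Hyd/HCTZ arrays were left out. Of the 10, 7 were above 5 on all 28 arrays. Tlr3 was above it on 25, Xcr1 on 16 and Itgae on 12 arrays, so levels of the last pair lie close to the limit of signal in most groups. Itgae averaged below 5 in all groups but Hyd/HCTZ, and Xcr1 in both knockout groups, so a difference between 2 such means has no readable size.

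The Hyd/HCTZ group stood apart for nearly all markers. Compared with Ang II alone, 9 of the 10 were called higher, with Xcr1, Tlr3 and Batf3 showing the largest differences, and Cd36 was not called. Relative to the shift of all genes the count was also 9 of 10. Of all tested genes 52.7% were called in this comparison, 40.8% were called higher and 23.7% were called higher relative to the shift. The median difference of the 10 was 1.38, beside 0.32 for all tested genes, and 1.06 relative to the shift. On every Hyd/HCTZ array 9 of the 10 exceeded all Ang II arrays, which held for 34.4% of all tested genes. For bulk RNA, a larger share of cDC1 and more of these transcripts per cell cannot be told apart.

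The chemokine receptor Xcr1, which binds Xcl1 from T and NK cells, showed the largest difference of the 10. Xcr1 had log2 levels of 7.41 to 7.82 (median 7.62) on the Hyd/HCTZ arrays, against 4.46, 4.41, 5.40 and 5.91 on the wild-type Ang II arrays. With 2-HOBA it read 5.59, 4.76, 5.43 and 5.27, and with vehicle 4.47 to 5.65 (median 5.17). The knockout arrays gave 4.47, 4.32, 4.84 and 4.34 with Ang II and 5.01, 4.98 and 4.20 with vehicle. Every Hyd/HCTZ array exceeded all 22 others, which were mixed in order and often near 5. Means were 7.61 ± 0.20 (SD, n = 6) with Hyd/HCTZ and 5.05 ± 0.73 (SD, n = 4) with Ang II alone. The difference was 2.57 (SE 0.26, limma adjusted p = 1.15e-08), which is 2.25 or 4.76-fold relative to the shift of all genes (adjusted p = 1.64e-07). The other 5 group means lay between 4.49 in knockout Ang II and 5.26 in 2-HOBA arrays.

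Clec9a is the receptor by which cDC1 recognise actin exposed on dead cells. On the Hyd/HCTZ arrays Clec9a lay at 9.16 to 9.86 (median 9.31), and on the wild-type Ang II arrays at 8.10, 7.66, 8.76 and 7.88. The 2-HOBA arrays read 8.22, 8.08, 8.21 and 8.46 and the wild-type vehicle arrays 7.51 to 8.85 (median 7.64). In knockout cells Clec9a was 7.44, 7.67, 7.99 and 7.72 with Ang II and 7.69, 7.80 and 7.08 with vehicle. The Hyd/HCTZ arrays were again above all others. The highest of the rest was the vehicle array that went against its Cybb label, at 8.85, and the next Ang II replicate 3, at 8.76. Means were 9.42 ± 0.29 (SD, n = 6) with Hyd/HCTZ and 8.10 ± 0.48 (SD, n = 4) with Ang II alone. Hyd/HCTZ minus Ang II came to 1.32 (SE 0.23, limma adjusted p = 3.54e-05), or 1.00 relative to the shift, 2-fold (adjusted p = 0.000906). Group means of the other 5 groups ran from 7.52 in knockout vehicle to 8.24 in 2-HOBA arrays.

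Tlr3 senses double-stranded RNA in endosomes. Log2 levels of Tlr3 were 7.57 to 8.08 (median 7.76) with Hyd/HCTZ, against 4.73, 5.21, 6.32 and 5.95 with only Ang II in the wild type. They were 5.50, 5.53, 5.50 and 5.94 with 2-HOBA and 4.83 to 5.86 (median 5.46) with vehicle. Levels in knockout cells were 5.23, 4.70, 5.65 and 5.30 with Ang II and 5.64, 5.39 and 5.21 with vehicle. No other array came within 1 unit of the lowest Hyd/HCTZ array, and within the Ang II group the 4 arrays spread more than in any other group. Means were 7.80 ± 0.19 (SD, n = 6) with Hyd/HCTZ and 5.55 ± 0.71 (SD, n = 4) with Ang II alone. The difference was 2.25 (SE 0.23, limma adjusted p = 1.35e-08), which is 1.93 or 3.82-fold relative to the shift of all genes (adjusted p = 2.71e-07). The 5 remaining group means lay close together, from 5.22 in knockout Ang II to 5.62 in 2-HOBA arrays.

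**Figure D1:**
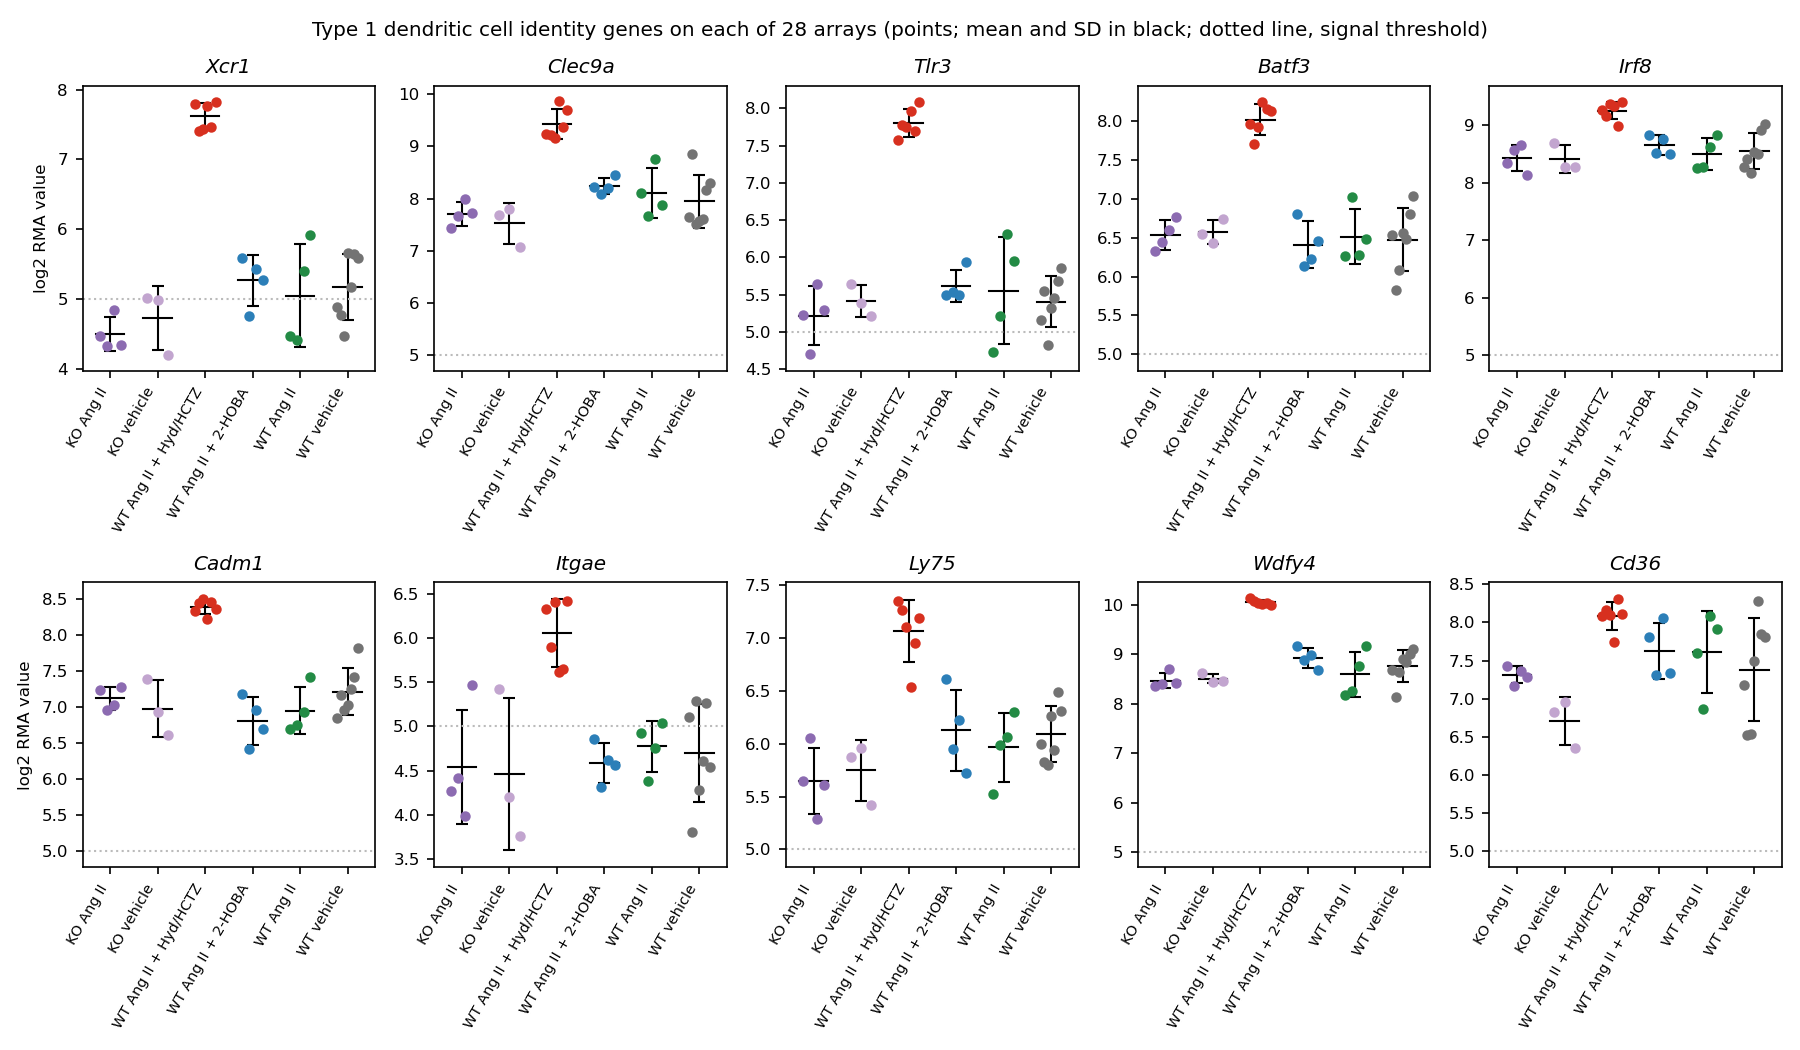
Log2 RMA level of each of the 10 cDC1 marker genes on each array (points), by group, with the group mean and SD in black and the signal threshold of 5 as a dotted line; each panel has its own log2 axis. The 6 Hyd/HCTZ arrays lie above every other array for 7 genes (Xcr1, Clec9a, Tlr3, Batf3, Cadm1, Itgae and Wdfy4), while Cd36 overlaps. The share of all tested genes with this pattern was not counted. Above all wild-type Ang II arrays alone it was 34.4%.

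The lineage factors differed in the size of their change. Batf3 is an AP-1 family factor needed for the development of cDC1. Batf3 had log2 levels of 7.70 to 8.24 (median 8.05) on the Hyd/HCTZ arrays, against 6.26, 7.02, 6.28 and 6.48 on the wild-type Ang II arrays. With 2-HOBA it read 6.81, 6.13, 6.23 and 6.46, and with vehicle 5.83 to 7.03 (median 6.54). The knockout arrays gave 6.33, 6.44, 6.60 and 6.77 with Ang II and 6.55, 6.43 and 6.74 with vehicle. All Hyd/HCTZ arrays lay above all others. Means were 8.02 ± 0.20 (SD, n = 6) with Hyd/HCTZ and 6.51 ± 0.35 (SD, n = 4) with Ang II alone. Hyd/HCTZ minus Ang II came to 1.51 (SE 0.20, limma adjusted p = 4.23e-07), or 1.20 relative to the shift, 2.29-fold (adjusted p = 1.83e-05). The other 5 means spanned 6.41 with 2-HOBA to 6.57 in knockout vehicle, less than the SD within most groups.

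Irf8, the interferon regulatory factor that sets the cDC1 fate and is also used by B cells and plasmacytoid dendritic cells, showed the smallest called difference. On the Hyd/HCTZ arrays Irf8 lay at 8.99 to 9.41 (median 9.30), and on the wild-type Ang II arrays at 8.25, 8.28, 8.62 and 8.83. The 2-HOBA arrays read 8.83, 8.52, 8.76 and 8.50 and the wild-type vehicle arrays 8.17 to 9.02 (median 8.50). In knockout cells Irf8 was 8.35, 8.57, 8.66 and 8.14 with Ang II and 8.69, 8.27 and 8.27 with vehicle. The Hyd/HCTZ arrays were above all Ang II arrays, and 1 vehicle array, at 9.02, lay within their range. Means were 9.25 ± 0.15 (SD, n = 6) with Hyd/HCTZ and 8.50 ± 0.28 (SD, n = 4) with Ang II alone. The difference was 0.76 (SE 0.17, limma adjusted p = 0.000521), which is 0.44 or 1.36-fold relative to the shift of all genes (adjusted p = 0.0332). After quantile normalization of the arrays the difference was 0.25 and no longer called (adjusted p = 0.173, with 0.00024 to 0.173 over all alternatives). Means in the other 5 groups were 8.41 in knockout vehicle to 8.65 in 2-HOBA arrays.

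Cadm1 is an adhesion molecule of the immunoglobulin family that marks cDC1 across species. Log2 levels of Cadm1 were 8.22 to 8.50 (median 8.40) with Hyd/HCTZ, against 6.69, 6.75, 6.93 and 7.41 with only Ang II in the wild type. They were 7.18, 6.41, 6.95 and 6.69 with 2-HOBA and 6.84 to 7.81 (median 7.17) with vehicle. Levels in knockout cells were 7.23, 6.95, 7.02 and 7.27 with Ang II and 7.39, 6.93 and 6.61 with vehicle. All 6 Hyd/HCTZ arrays exceeded the rest, and they differed little among themselves. Means were 8.39 ± 0.10 (SD, n = 6) with Hyd/HCTZ and 6.94 ± 0.33 (SD, n = 4) with Ang II alone. Hyd/HCTZ minus Ang II came to 1.44 (SE 0.19, limma adjusted p = 4.05e-07), or 1.12 relative to the shift, 2.18-fold (adjusted p = 2.05e-05). The other means lay between 6.81 with 2-HOBA and 7.21 with wild-type vehicle.

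Itgae encodes the alpha chain of CD103, an integrin that binds E-cadherin. Itgae had log2 levels of 5.61 to 6.42 (median 6.11) on the Hyd/HCTZ arrays, against 4.93, 4.38, 4.75 and 5.04 on the wild-type Ang II arrays. With 2-HOBA it read 4.86, 4.31, 4.62 and 4.56, and with vehicle 3.81 to 5.29 (median 4.61). The knockout arrays gave 4.27, 4.42, 3.99 and 5.47 with Ang II and 5.42, 4.20 and 3.76 with vehicle. Most arrays outside Hyd/HCTZ were below 5, where no order among groups can be read, and every Hyd/HCTZ array was above them. Means were 6.05 ± 0.38 (SD, n = 6) with Hyd/HCTZ and 4.77 ± 0.29 (SD, n = 4) with Ang II alone. The difference was 1.28 (SE 0.30, limma adjusted p = 0.000837). With 5 in place of the dim Ang II mean it was at least 2.07-fold, or at least 1.66-fold relative to the shift (adjusted p = 0.0096).

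Ly75 encodes DEC-205, an endocytic receptor that carries antigen to late endosomes. On the Hyd/HCTZ arrays Ly75 lay at 6.54 to 7.35 (median 7.15), and on the wild-type Ang II arrays at 5.52, 5.99, 6.06 and 6.30. The 2-HOBA arrays read 6.61, 5.95, 6.22 and 5.72 and the wild-type vehicle arrays 5.80 to 6.49 (median 6.00). In knockout cells Ly75 was 5.65, 6.05, 5.29 and 5.61 with Ang II and 5.87, 5.96 and 5.42 with vehicle. The Hyd/HCTZ arrays lay above all Ang II and vehicle arrays, and the lowest of them, at 6.54, was below the highest 2-HOBA array. Means were 7.07 ± 0.29 (SD, n = 6) with Hyd/HCTZ and 5.97 ± 0.32 (SD, n = 4) with Ang II alone. The difference was 1.10 (SE 0.20, limma adjusted p = 4.44e-05), which is 0.78 or 1.72-fold relative to the shift of all genes (adjusted p = 0.00192). Elsewhere the means ran from 5.65 in knockout Ang II to 6.12 with 2-HOBA.

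Wdfy4, a BEACH domain protein that mouse cDC1 need to cross-present cell-associated antigen, had the smallest SD on the Hyd/HCTZ arrays. Log2 levels of Wdfy4 were 10.01 to 10.15 (median 10.05) with Hyd/HCTZ, against 8.17, 8.27, 8.77 and 9.17 with only Ang II in the wild type. They were 9.17, 8.89, 8.99 and 8.68 with 2-HOBA and 8.13 to 9.12 (median 8.85) with vehicle. Levels in knockout cells were 8.36, 8.40, 8.71 and 8.42 with Ang II and 8.62, 8.45 and 8.46 with vehicle. The Hyd/HCTZ arrays spanned a narrow range and lay above all others. Means were 10.06 ± 0.05 (SD, n = 6) with Hyd/HCTZ and 8.59 ± 0.47 (SD, n = 4) with Ang II alone. The difference was 1.47 (SE 0.18, limma adjusted p = 1.53e-07), which is 1.15 or 2.22-fold relative to the shift of all genes (adjusted p = 8.37e-06). A second Wdfy4 probe set, with a lower mean and not chosen, differed less, by 0.61 (SE 0.15, adjusted p = 0.0016), which is 0.29 relative to the shift. The remaining means were 8.47 in knockout Ang II to 8.93 in 2-HOBA arrays.

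Cd36, a scavenger receptor for lipids and apoptotic cells, was the exception. Cd36 had log2 levels of 7.75 to 8.31 (median 8.11) on the Hyd/HCTZ arrays, against 7.60, 6.86, 8.08 and 7.92 on the wild-type Ang II arrays. With 2-HOBA it read 7.81, 7.31, 8.06 and 7.33, and with vehicle 6.52 to 8.28 (median 7.49). The knockout arrays gave 7.43, 7.17, 7.36 and 7.29 with Ang II and 6.82, 6.95 and 6.35 with vehicle. The wild-type groups overlapped, and all knockout arrays lay below all Hyd/HCTZ arrays. Means were 8.09 ± 0.18 (SD, n = 6) with Hyd/HCTZ and 7.62 ± 0.54 (SD, n = 4) with Ang II alone. The difference was 0.47 (95% interval -0.08 to 1.02), with a limma adjusted p of 0.139, and was 0.16 relative to the shift (adjusted p = 0.654). Across the other 5 groups means ran from 6.71 in knockout vehicle to 7.63 with 2-HOBA, the widest spread of group means among the 10.

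**Figure D2:**
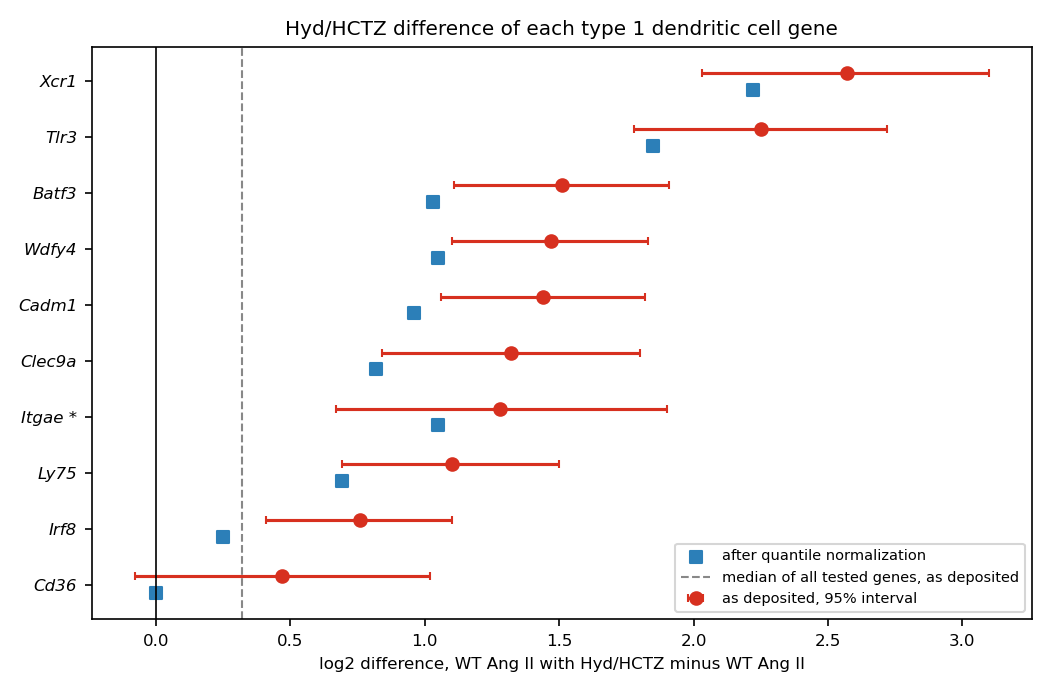
Log2 difference, Hyd/HCTZ with Ang II minus Ang II alone in wild type, for each marker. Circles with 95% intervals are the deposited values, squares are the same difference after quantile normalization, and the dashed line is the median of all tested genes, 0.32. Xcr1 (2.57) and Tlr3 (2.25) lie farthest right; after quantile normalization Irf8 is at 0.25 and Cd36 at 0. The asterisk marks Itgae, whose Ang II mean lies below 5.

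The same arrays were also set against vehicle and against 2-HOBA; since all 3 comparisons share the Hyd/HCTZ arrays, their values stand side by side and are not independent. Against vehicle, 10 of 10 markers were called higher (of all tested genes 56.6% were called and 43.4% called higher), and 9 of 10 relative to the shift (25.3% of all tested genes were called higher so). After quantile normalization 8 of 10 were called higher, and Irf8 (0.21, adjusted p = 0.163) and Cd36 (0.24, adjusted p = 0.259) were not called. Of all 10452 tested genes, 4972 were called then and 2791 called higher. The median difference was 1.33, or 1.24 with 5 in place of the vehicle mean of Itgae (4.70), whose difference was at least 1.05. Xcr1 differed by 2.45, Tlr3 by 2.39, Batf3 by 1.55, Clec9a by 1.47, Wdfy4 by 1.30, Cadm1 by 1.18, Ly75 by 0.98 and both Irf8 and Cd36 by 0.71. Cd36 was 0.40 relative to the shift and not called there (adjusted p = 0.155, with 0.00169 to 0.259 over all alternatives). Without the vehicle array that went against its label, 10 of 10 were called (5777 of all 10452 tested genes) and the median was 1.20. Against 2-HOBA, 9 of 10 were called higher (of all tested genes 45.7% were called and 36% called higher), and 8 of 10 relative to the shift (23.2% of all tested genes were called higher so). Xcr1 differed there by 2.35, Tlr3 by 2.19, Batf3 by 1.61 and Cadm1 by 1.58. Irf8 differed by 0.60, which was 0.35 relative to the shift and not called (adjusted p = 0.0929), and Cd36 by 0.46 (adjusted p = 0.163).

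Other genes of the cDC1 programme were read from lists of markers and pathway genes, each difference given relative to the shift between Hyd/HCTZ and Ang II alone. Of all tested genes 23.7% were called higher and 25% lower on that scale, and the counts of each list below stand beside these shares. Of 14 tested genes of a wider cDC1 signature, 11 were called higher and 0 lower, with a median of 1.26. The 3 with the smallest p were Rab7b, a small GTPase of late endosomes (2.42), Gpr33, an orphan receptor (at least 1.00, its Ang II mean of 3.94 being below 5), and Gpr141b, another orphan receptor (2.54). Of these 14 genes, 4 averaged below 5 with Ang II alone and 0 with Hyd/HCTZ. With 5 in place of those means, the list median before taking off the shift was 1.43 (1.58 as deposited). Gpr33 averaged 3.67 to 3.96 in the groups outside Hyd/HCTZ. Whether list genes, here and below, pass the filter without the Hyd/HCTZ arrays was not checked. A gene that passed only through those arrays could hardly come out lower there, so it adds little weight to a count called higher. Of 11 transcription factors that favour or oppose cDC1, 7 were called higher and 0 lower, with a median of 0.78. Among them were Bcl6 (1.64), Nfil3 (1.90), which acts early in cDC1 development, and Mycl (0.82), a MYC family member of dendritic cells. Before the shift was taken off, all 11 were called higher, as were 40.8% of all tested genes. On that scale, factors that oppose cDC1 were called higher together with those that favour it. Relative to the shift only 7 of the 11 were called, and opposing and favouring factors were not counted apart. Of 15 genes of cross-presentation and MHC class I loading, 7 were called higher and 1 lower, with a median of 0.59. Rab11a of recycling endosomes (1.53) and the immunoproteasome subunits Psmb9 (1.62) and Psmb10 (1.04) were higher, and Nlrc5, which activates MHC class I transcription, was lower (-0.64, adjusted p = 0.0061).

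Markers of other dendritic cells were mostly higher as well. Of 10 genes shared by conventional dendritic cells 6 were called higher and 0 lower, with a median of 0.80; they included Pvr (at least 2.04), Itgax, which encodes CD11c (1.11), and Flt3, the receptor of a dendritic cell growth factor (0.91). Of 14 markers of type 2 dendritic cells 8 were called higher and 2 lower, with a median of 0.85. Of these 14, 3 averaged below 5 with Ang II alone, 1 of them also with Hyd/HCTZ. With 5 in place of such means, the list median before taking off the shift was 0.94 (1.17 as deposited). The surface receptor Clec4a4 (at least 1.83) and the factor Klf4 (1.67) were higher, Clec10a averaged 5.21 with Hyd/HCTZ and 3.19 with Ang II alone, and Dtx1 (-1.31) and Ltb (-1.21) were lower. Of 10 plasmacytoid markers 5 were called higher and 1 lower, with a median of 0.63, among them Cd300c (1.82), the interferon factor Irf7 (0.72) and the gut-homing receptor Ccr9 (at least 0.94), with Pacsin1 lower (-0.50).

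Markers of other spleen cells moved with the cDC1 genes in either direction. B cell markers were called lower in 12 of 13 tested genes (median -1.85 relative to the shift), led by Ebf1 (-3.16), Cr2 (-3.82) and Fcer2a (-3.14). Their mean level per array was 5.97 to 7.03 with Hyd/HCTZ and 7.82 to 8.77 with Ang II alone, and 0 of 13 averaged below 5 in either group. Irf8, Ly75 and Wdfy4, which B cells also transcribe, were called higher, though Irf8 was not after quantile normalization (0.25, limma adjusted p = 0.173). The part of B cells in these values was not tested. T and NK cell markers were called lower in 6 and higher in 1 of 11 (median -0.54), with Cd247 (-1.28) and Cd3e (-1.50) lower and Klrd1 (0.92) higher. Their mean level per array was 5.88 to 6.43 with Hyd/HCTZ and 6.22 to 7.19 with Ang II alone, and 1 and 0 of 11 averaged below 5.

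Red pulp macrophage markers were called higher in 8 of 15 and lower in 0 (median 1.00), led by the complement genes C1qa (2.00), C1qc (1.43) and C1qb (1.36). Their mean level per array was 7.41 to 8.86 with Hyd/HCTZ and 6.58 to 7.56 with Ang II alone, and 0 and 2 of 15 averaged below 5. Monocyte markers were called higher in 6 of 7 (median 0.99), with Cd14 at 2.85, Cd68 at 1.84 and Fcgr4 at 1.47. The mean level per array of the monocyte list was 6.85 to 7.65 with Hyd/HCTZ and 5.99 to 6.40 with Ang II alone. Cd36, the marker that macrophages and monocytes share with cDC1, was not called. Neutrophil markers were called lower in 7 of 10 (median -1.36), with Camp at -2.17. With 5 in place of means below it, the neutrophil median before taking off the shift was -0.73 (-1.04 as deposited). Erythroid markers were called lower in 8 of 9, with Slc4a1 at -2.64. Of these 9, 7 averaged below 5 with Hyd/HCTZ and 0 with Ang II alone, so their median before taking off the shift was -0.53 with 5 in place of those means (-1.50 as deposited). Platelet markers were called lower in 1 of 5, Itga2b, which averaged below 5 in both groups. That share of calls is close to the 25% of all genes. The part of these other cells, of array set 3 and of the wider interquartile range in the differences of the cDC1 genes was not tested.

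**Figure D3:**
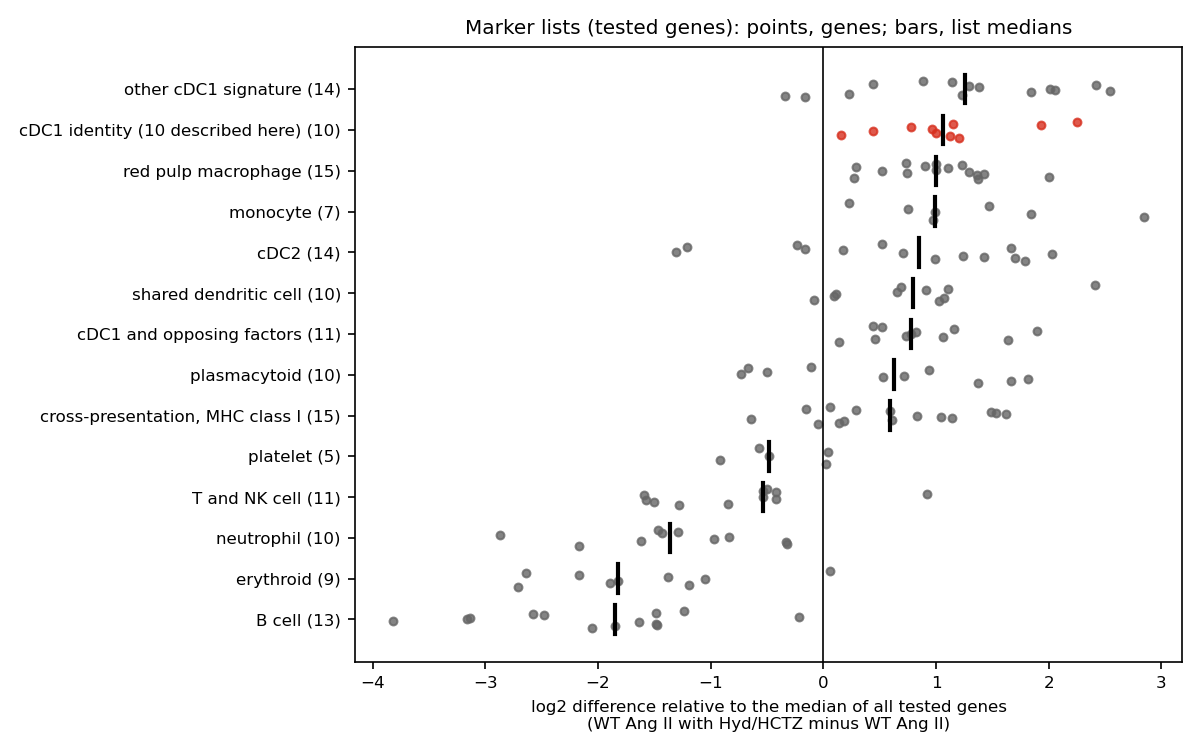
Log2 difference, Hyd/HCTZ with Ang II minus Ang II alone in wild type, relative to the median of all tested genes, for each tested gene of 14 lists (points; the number tested in brackets) with the list median as a bar. The 10 cDC1 markers (red, median 1.06) lie with the wider cDC1 signature (1.26) and the red pulp macrophage (1.00) and monocyte (0.99) lists to the right; the B cell list (-1.85) lies far left. Means below 5 enter as deposited, which makes the erythroid points, and single points of other lists such as Gpr33, larger than the signal can show.

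No cDC1 marker was called for Ang II by itself. Between Ang II and vehicle in wild-type cells limma called 0 markers and 0% of all tested genes, with 0 markers and 266 genes at an unadjusted p below 0.05. Differences of the 9 markers other than Itgae ran from -0.27 for Cadm1 to 0.23 for Cd36, 4 higher and 5 lower, and the median of all 10 was -0.01. Xcr1 differed by -0.12 (95% interval -0.64 to 0.40), Clec9a by 0.15 (95% interval -0.31 to 0.61) and Batf3 by 0.03 (95% interval -0.36 to 0.42). Intervals of this width leave room for moderate differences in either direction. Without the vehicle array that went against its label the median was -0.08, Clec9a was 0.30 and Cd36 0.09, with 0 called. Within array set 1 (2 arrays against 3) the median of the 10 was -0.12, and within set 2 (2 against 4) 0.07, with 0 called in either. Red pulp macrophage markers lay lower with Ang II in 15 of 15 (0 called, median -0.70), while Cd36 was 0.23 higher in mean (0.09 without that vehicle array).

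The array sets were visible in the markers themselves. Among wild-type vehicle arrays, 8 of 10 markers had a higher mean in set 2 than in set 1, with a median gap of 0.43 (0.39 for all tested genes). Xcr1 read 5.17 to 5.65 on the 4 vehicle arrays of set 2 and 4.47 to 4.88 on the 3 of set 1, with no overlap. Among Ang II arrays, 9 of 10 were higher in set 2, with a median gap of 0.46 (0.11 for all tested genes): Xcr1 read 5.40 and 5.91 in set 2, and 4.46 and 4.41 in set 1.

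With 2-HOBA, limma called 0 markers against Ang II alone (0% of all tested genes, with 0 markers and 379 genes at an unadjusted p below 0.05) and 0 against vehicle (0% of all tested genes, with 1 marker and 602 genes at an unadjusted p below 0.05). Against Ang II the differences of the 9 markers other than Itgae ran from -0.14 for Cadm1 to 0.34 for Wdfy4 (adjusted p = 0.977), and the median of all 10 was 0.10. The second Wdfy4 probe set differed by -0.04. Xcr1 differed by 0.22 (95% interval -0.37 to 0.81) and Clec9a by 0.14 (95% interval -0.38 to 0.66). All 2-HOBA arrays were in array set 2. Against the 2 Ang II arrays of that set 8 of the 9 were lower, the median of the 10 was -0.19 (-0.08 with 5 in place of means below it), and Tlr3 (-0.52) and Xcr1 (-0.39) differed most, so the direction turned; 0 were called. Against vehicle the marker at an unadjusted p below 0.05 was Cadm1, at -0.40 (95% interval -0.77 to -0.03), with an adjusted p of 0.834, and within set 2 (4 arrays against 4) it was -0.57 (adjusted p = 0.179). The median of the 10 against vehicle was 0.10, and -0.11 within set 2. Without the vehicle array that went against its label it was 0.05, with Cadm1 at -0.41, Clec9a at 0.44 and 0 called.

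NOX2 knockout cells had lower mean levels of most markers than wild-type cells, but none was called. Between knockout and wild type under Ang II, 6 of the 8 markers above 5 in both groups had lower means. The median of all 10 was -0.27 as deposited and -0.09 with 5 in place of means below it (-0.03 for all tested genes, as deposited). limma called 0 markers and 0.0478% of all tested genes, with 0 markers and 714 genes at an unadjusted p below 0.05. Clec9a differed by -0.40 (95% interval -0.92 to 0.13). Xcr1 averaged 4.49 in knockout cells, below 5, and 5.05 in wild-type cells (adjusted p = 0.749), so its difference could be read only as -0.05 with 5 in place of the knockout mean. Under vehicle, 6 of those 8 were lower, the median of all 10 was -0.25 (-0.20 with 5 in place of means below it), and limma called 0 markers and 0.00957% of all tested genes, with 1 marker and 657 genes at an unadjusted p below 0.05. That marker was Cd36, at -0.68 (95% interval -1.27 to -0.09), with an adjusted p of 0.74. Without the vehicle array that went against its label the median was -0.32, Cd36 was -0.82 (adjusted p = 0.123) and 0 markers were called.

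All knockout arrays were in array set 1, and within that set the medians lay closer to 0, while single markers moved either way. Under Ang II (4 arrays against 2) the median of the 10 was 0.07. Of the 10, 6 lay closer to 0 than over all arrays and 4 farther (Batf3, Irf8, Cadm1 and Wdfy4), with Cadm1 at 0.40 and Clec9a at -0.18. Under vehicle (3 against 3) the median was 0.01, and 4 of the 8 markers above 5 in both groups were higher. Again 6 of the 10 lay closer to 0 and 4 farther (Clec9a, Tlr3, Batf3 and Itgae), with Cd36 at -0.04, Clec9a at -0.47 and Batf3 at 0.42. The counts under both treatments include Xcr1 and Itgae. Within set 1 these averaged below 5 in both genotypes, so their differences have no readable size. Leaving out the array that went against its label, Clec9a was -0.05 and Batf3 0.27, with 0 called. Markers of other cells also lay apart between the genotypes over all arrays, and were not read within set 1. The wild-type groups there include arrays of set 2 and the knockout groups none, so array set and genotype cannot be told apart. By the sign of the difference alone, T and NK cell markers were lower in knockout cells in 11 of 11 under Ang II (median -0.46) and in 10 of 11 under vehicle (-0.38). B cell markers were lower in 12 of 13 under Ang II (-0.39) and in 6 of 13 under vehicle (0.01). Red pulp macrophage markers were higher in 13 of 15 under Ang II (0.25) and lower in 13 of 15 under vehicle (-0.42). None of these list genes was called, and their part in the values of the 10 was not tested.

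**Figure D4:**
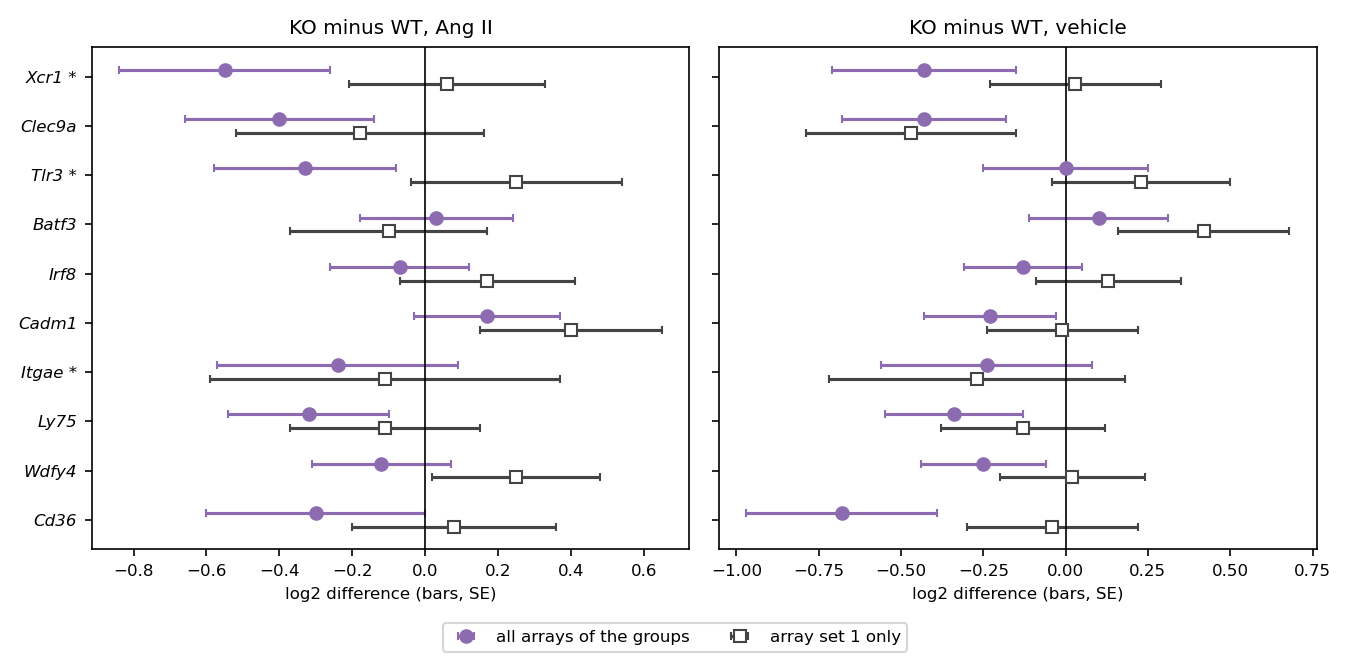
Log2 difference, NOX2 knockout minus wild type, for each marker under Ang II (left) and vehicle (right), with SE bars. Filled circles use all arrays of the groups and open squares only arrays of set 1; Cd36 under vehicle is at -0.68 over all arrays and at -0.04 within set 1, and Clec9a at -0.43 and -0.47. Asterisks mark genes with a mean below 5 in a group plotted (Xcr1, Tlr3 and Itgae). A difference between means that are both below 5 has no readable size. For Tlr3 only the wild-type Ang II mean within set 1 (4.97) was below 5.

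Within knockout cells, Ang II against vehicle gave 0 calls among the markers (0% of all tested genes, with 0 markers and 296 genes at an unadjusted p below 0.05). Cd36 showed the largest difference, 0.61 (95% interval -0.04 to 1.26), with an adjusted p of 1. All 4 Ang II arrays, at 7.17 to 7.43, were above all 3 vehicle arrays, at 6.35 to 6.95, and all 7 arrays were in set 1. Of the 10452 tested genes, 230 were likewise higher on every Ang II array. For the other 7 markers above 5 in both groups the differences ran from -0.19 for Tlr3 to 0.18 for Clec9a. The Ang II effect in knockout cells minus that in wild-type cells, the interaction, was called for 0 markers and 0% of all tested genes (0 markers and 257 genes at an unadjusted p below 0.05), and ran from -0.34 for Tlr3 to 0.40 for Cadm1 over the 8 markers above 5 in all 4 groups. Without the vehicle array that went against its label it ran from -0.36 for Tlr3 to 0.52 for Cd36, with 0 called. In the 6 comparisons made among the 5 groups outside Hyd/HCTZ, 0 markers were called, so the tests did not resolve the order of those group means; 2-HOBA was not compared with the knockout groups.

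The markers varied together from array to array, to different degrees. After each group's mean was taken off, 40 of the 45 pairs of markers had a positive Pearson correlation over the 28 arrays, with a median of 0.36 and a range of -0.15 to 0.78. Xcr1 with Irf8 and Xcr1 with Wdfy4 were highest, both at 0.78. The lowest were Clec9a with Itgae (-0.15), with Batf3 (-0.13) and with Wdfy4 (-0.11). Those 3 were 0.09, 0.19 and 0.27 without the vehicle array that went against its label, on which Clec9a was high. Without removing the group means the 45 correlations ran from 0.53 to 0.97, with a median of 0.80, and over the 22 arrays outside Hyd/HCTZ from -0.29 to 0.83, with a median of 0.35. The points share array sets and treatment groups, so these values are a description.

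The genes whose levels followed Xcr1 and Clec9a most closely within groups were sought among the tested genes outside the 10, leaving out predicted genes with Gm or Rik names. For Xcr1 over the 28 arrays they were Gpr141b, which is on the wider cDC1 list (r = 0.86, and 0.97 without removing group means), Ndufa13 (0.84 and 0.91), Glrx3 (0.83 and 0.79), Vopp1 (0.82 and 0.87) and Nrm (0.82 and 0.62). For Clec9a they were Ndufc1 (0.82 and 0.94), Ngrn (0.81 and 0.43), Cd300c, which is on the plasmacytoid list (0.75 and 0.85), Fahd1 (0.71 and 0.33) and Coa6 (0.67 and 0.84). Without the vehicle array that went against its label, the within-group values for Clec9a were 0.77, 0.77, 0.73, 0.55 and 0.53 in the same order, so those of Fahd1 and Coa6 rested partly on it. For Xcr1 they were 0.82 to 0.88.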

How the data were processed

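The authors deposited 1 log2 value per probe set and array, made with RMA and Partek 6.6 per the submitters' processing notes; RMA subtracts background, normalizes between arrays and compresses dim signals. The values ran from 0.90 to 14.34 over 35556 probe sets and were used as deposited. GEO's platform annotation gave 1 symbol to 21789 probe sets, several to 1621 and none to 12146; where several named 1 gene (999 genes), the one of highest mean was used. The test took the 10452 genes with a value above 5 on 3 or more arrays. limma 3.58.1 in R 4.3.3 fitted 6 group means over 28 arrays, with two-sided moderated tests, Benjamini-Hochberg adjustment over all tested genes and calls at adjusted p below 0.05; the script was tested on simulated data. Depth is not defined for arrays; their number limits the precision, and p-values measure the spread between samples labelled as biological replicates.

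All 10 markers are named; list genes were named by the 3 smallest p, plus up to 2 called against their list. The markers and lists were chosen with earlier results of these data known. Replicate numbers did not pair samples: same-numbered arrays correlated at -0.35 to 0.37 after group means were removed. Alternatives were other filters, normalizations, zero points, spreads, arrays, blocks and a fold threshold.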

Additional observations from a re-analysis of the deposited data

Results flagged for a closer look

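Among 50 combinations of marker and group with 4 to 7 arrays, 1 had an array far from the rest. Tlr3 read 5.94 on the array of wild-type Ang II with 2-HOBA replicate 4, against 5.50 to 5.53 on the other 3; the gap was 0.932 of the group's range, above Dixon's critical value for 4 arrays. Chance alone places about 1 in 20 groups past such a value.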

How the results depend on the processing

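Over 100 differences (10 markers in 10 comparisons) and 2330 values under alternatives, 2320 kept their side of the threshold, 6 lost a call, 4 gained one and 0 called values reversed; 217 values that were called in neither setting had the opposite sign. With each array left out in turn, the markers called were 9 to 9, 10 to 10 and 9 to 9 for Hyd/HCTZ against Ang II, vehicle and 2-HOBA, and 0 elsewhere. Over all tested genes those Hyd/HCTZ fits called 4585 to 5521, 5305 to 6257 and 3973 to 4774. Quantile normalization ended the call of Irf8 against vehicle (0.21, adjusted p = 0.163, with 4.34e-05 to 0.163 over all alternatives) and against 2-HOBA (0.17, adjusted p = 0.376), as it did against Ang II, and that of Cd36 against vehicle (0.24, adjusted p = 0.259). Cd36 against 2-HOBA was called with array weights (0.42, adjusted p = 0.0273) and with only the arrays compared (0.46, adjusted p = 0.0181; up to 0.804 elsewhere). Array weights called 2 markers between knockout and wild-type vehicle, Wdfy4 (-0.47, adjusted p = 0.0283) and Cd36 (-0.94, adjusted p = 0.00635), for which the other alternatives gave adjusted p values up to 1. The cause was not tested. Without array weights the second Wdfy4 probe set differed there by 0.10, opposite in sign to the chosen one (-0.25).

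Counts over all genes moved more. Between knockout and wild-type vehicle 1 gene was called, against 1437 with array weights, 144 with array set as a block, 68 without wild-type vehicle replicate 2, 26 within set 1 without it, 6 within set 1, 2 by quantile normalization, 2 without wild-type vehicle replicate 6 and 0 with the filter above 7. Between knockout and wild-type Ang II 5 were called, against 40 with array set as a block, 16 within set 1, 14 with only the arrays compared, 13 by quantile normalization, 3 with array weights and 1 to 3 with an array left out. For Hyd/HCTZ against Ang II, vehicle and 2-HOBA the filter above 7, which tests fewer genes, gave 2552, 2679 and 2262 calls, and no filter 8761 and 10334 against Ang II and vehicle. For 2-HOBA against vehicle array weights gave 108 calls and set 2 alone 7; against Ang II set 2 alone gave 5. Of the calls for Hyd/HCTZ against Ang II, 4261 of 5503 were higher as deposited and 2472 of 5083 relative to the shift. With the replicate block no marker's call changed, and 9 were called for Hyd/HCTZ against Ang II (median 1.34). The main fit called 52.7% of all tested genes in that comparison, and the share with the block is not given here. Over all genes, knockout against wild type gave with the block 2 calls under vehicle and 11 under Ang II. The number of arrays and signals near 5, as for Itgae and Xcr1, limit what could be detected.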
